A study of Mus musculus with 21 samples.

Results

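This account covers 10 genes for neuronal RNA-binding proteins, chosen by name and all found in both deposited tables: the ELAV family members Elavl2, Elavl3 and Elavl4, the Nova family members Nova1 and Nova2, the Rbfox family members Rbfox1, Rbfox2 and Rbfox3, and the Musashi family members Msi1 and Msi2. They are 10 of 22786 genes that the tables share, and they were chosen with earlier results of these data known. RNA was sequenced from cells sorted out of the main olfactory epithelium, the tissue that makes olfactory sensory neurons (OSN) throughout life. All mice carried a tetO construct with mCherry, either tetO-HyperTRIBE-mCherry (HT) or tetO-Mex3a-HyperTRIBE-mCherry (MexHT). HyperTRIBE is an RNA-editing enzyme domain that marks the RNAs bound by a protein fused to it, and Mex3a is an RNA-binding protein, so HT mice are the control for the Mex3a part of the fusion. Every mouse therefore carried an editing domain, and none was wild type. The constructs were switched on by gg8-tTA, a driver of immature OSN, or by the pair gg8-tTA and OMP-tTA, the second of which extends expression to mature OSN. Cells positive for mCherry are called OSN below, and the mCherry-negative cells sorted from the same mouse served as its internal control. With both drivers (gg8+OMP), MexHT mice gave 6 OSN and 5 mCherry-negative libraries, and HT mice gave 3 of either kind. With gg8 alone there were 2 MexHT OSN and 2 MexHT mCherry-negative libraries and no HT mice. The labels used here give neither age nor sex.

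The 4 families act at different steps in the life of an RNA. ELAV proteins bind U-rich stretches, mostly in introns and 3′ untranslated regions, and stabilise or alter the splicing of neuronal mRNAs. Nova proteins bind YCAY motifs and Rbfox proteins bind UGCAUG, and both steer alternative splicing as neurons mature. Musashi proteins bind UAG-containing sites and are best known as translational regulators of stem and progenitor cells, although olfactory neurons also hold their RNAs.

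Levels are in TPM, which corrects for gene length and library depth. Each library rested on 7529648 to 15358109 counts, recovered from the TPM values. Mex3a itself, which the MexHT construct supplies, stood at 328 to 1271 TPM in MexHT OSN and at 24.0 to 61.5 TPM in HT OSN. The mature OSN marker Omp was present in mCherry-negative cells too, at 46.9 to 1431 TPM in MexHT and 1093 to 2159 TPM in HT libraries, so the mCherry-negative fraction was not free of neurons. No 2 libraries had identical values.

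Elavl3 was the most abundant of the 10 genes in all 6 groups and the Rbfox1 and Rbfox3 RNAs were near the limit of detection in most. In HT OSN the order of mean levels was Elavl3 (644 TPM ± 76.8, SD, n = 3), Msi2 (381 ± 26.1), Msi1 (372 ± 22.8), Rbfox2 (94.7 ± 8.44), Elavl4 (79.4 ± 8.48), Elavl2 (26.1 ± 0.11), Nova2 (19.4 ± 2.51), Nova1 (3.37 ± 0.659), Rbfox1 (0.783 ± 0.447) and Rbfox3 (0.776 ± 0.432). The libraries of neighbouring genes in that order overlapped for Msi2 and Msi1, for Rbfox2 and Elavl4, and for Rbfox1 and Rbfox3, and not elsewhere. In MexHT OSN, Msi2 dropped in this order below Rbfox2, which had a mean of 179 TPM ± 17.9 (n = 6) against 163 ± 38.8 for Msi2, with overlapping libraries. The lengths behind the deposited values matched the longest GENCODE M21 transcript closely for most of the 10 genes. For Msi1 the implied length was 1551 bases, against a longest transcript of 3133 bases, so the level of Msi1 relative to other genes depends on that choice. Implied lengths were also 1.79 and 1.56 times the longest transcript for Rbfox1 and Rbfox3. Comparisons of one gene between libraries do not depend on length.

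**Figure D1:**
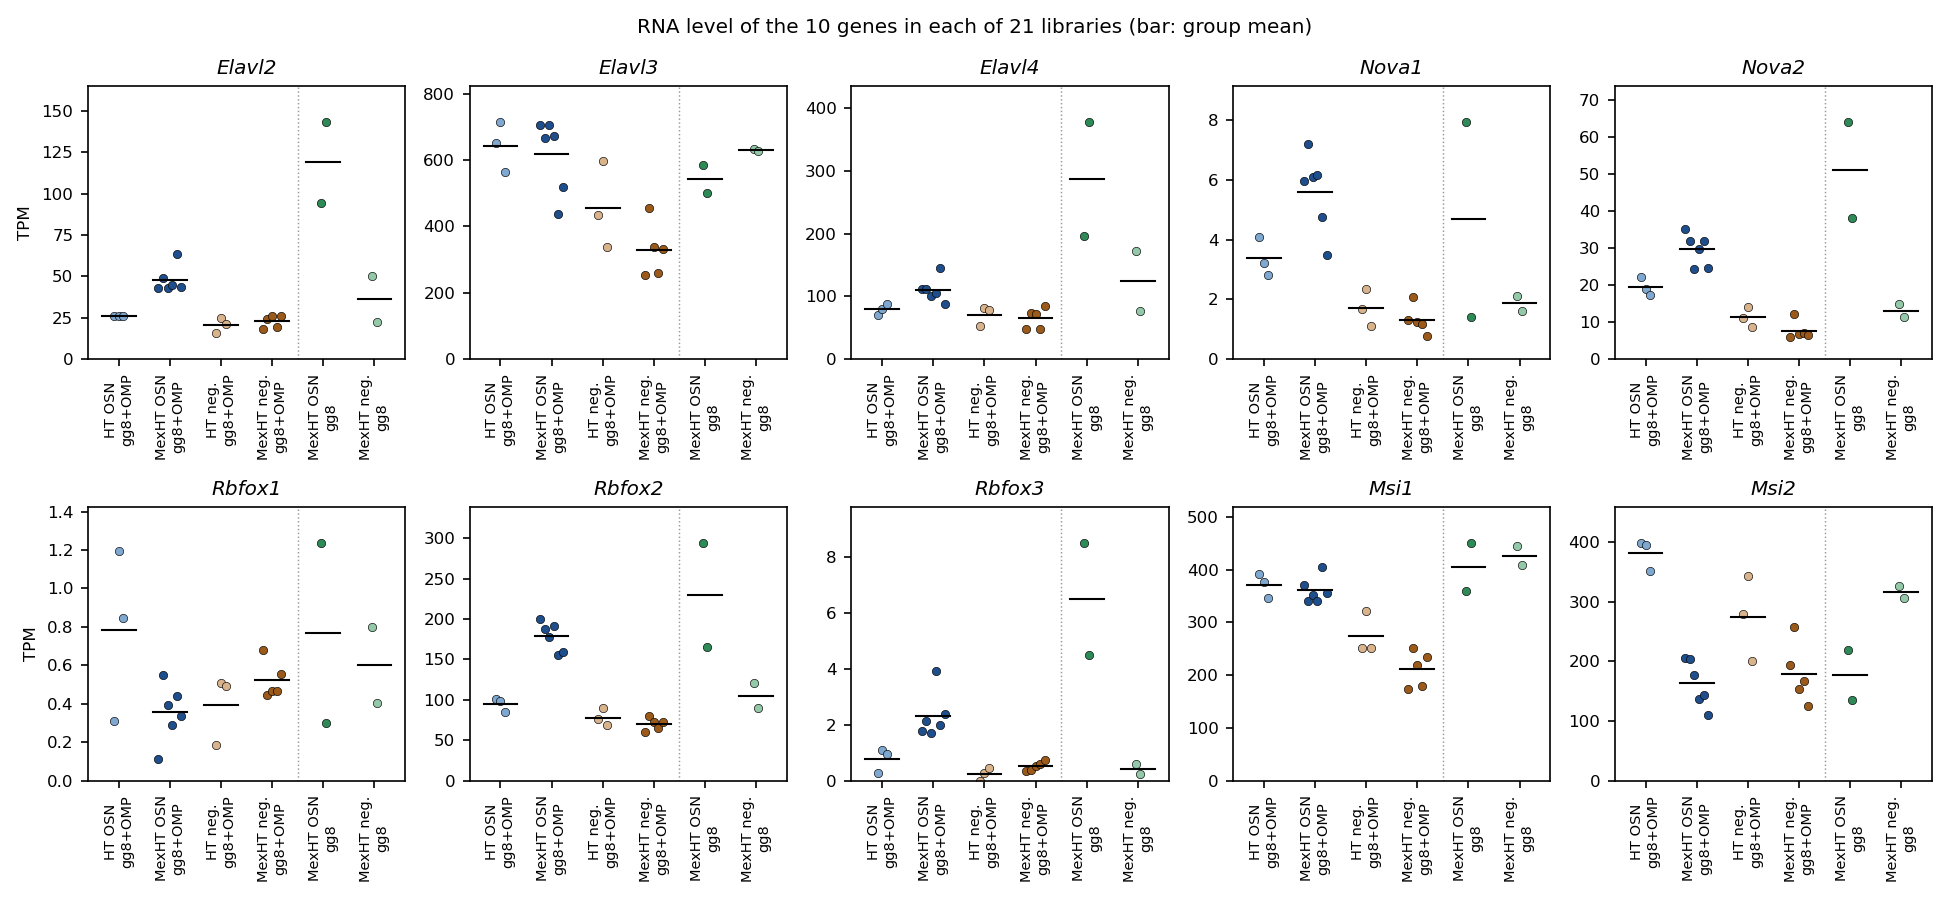
RNA level in TPM (vertical axis, linear and starting at 0, scaled per gene) of the 10 genes in each of the 21 libraries, by group, with "neg." for mCherry-negative cells. Points are libraries, bars are group means and the dotted line parts the 2 separately scaled tables. The 6 MexHT OSN libraries lie above the 3 HT OSN libraries for Elavl2, Elavl4, Nova2, Rbfox2 and Rbfox3 and below them for Msi2.

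MexHT OSN and HT OSN both carry the editing domain and differ, by their labels, in the addition of Mex3a. Rbfox2, Elavl2, Rbfox3, Nova2 and Elavl4 rose in MexHT OSN and Msi2 fell, while Elavl3 and Msi1, both among the most abundant of the 10 genes, differed by less than 0.1 on the log2 scale. Nova1 was 1.49-fold higher but missed the threshold. In all, 6 of the 9 genes that could be tested passed limma's test on log2(TPM + 1) at a Benjamini-Hochberg adjusted p under 0.05, 5 higher and 1 lower. One of the 6, Rbfox3, averaged under 1 TPM in HT OSN and so reached the test only through the group where it is high; of the other 8 genes 5 passed. Over all 16067 genes tested 36.8% passed, 19.9% higher and 16.8% lower. The libraries of the 2 groups did not overlap for those 6 genes, Rbfox3 included, as was the case for 38.4% of all genes. The median log2 difference was 0.58 over the 9 genes, again with Rbfox3 included, and 0.03 over all genes tested.

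Among the ELAV genes, Elavl2, whose protein is found in neurons and in germ cells, changed most. Elavl2 (chromosome 4, 91250763 to 91400785, minus strand, GRCm38) was at 26.2, 26.0 and 26.2 TPM in the 3 HT OSN libraries. In MexHT OSN its lowest, median and highest values were 42.9, 44.1 and 63.6 TPM. All 6 MexHT libraries were above all HT libraries, and replicate 5 held the highest value. The difference was 1.78-fold (log2 0.83, SE 0.14, limma adjusted p = 0.00167). Elavl4, which encodes HuD, a stabiliser of mRNAs for axon growth, lies on the same chromosome (110203722 to 110351909, minus strand). Its HT OSN values were 70.4, 80.4 and 87.3 TPM, and in MexHT OSN the lowest, median and highest were 87.7, 108 and 145 TPM. The groups came within 1 TPM of each other without overlapping, and the 1.38-fold difference (log2 0.46, SE 0.15, limma adjusted p = 0.0312) was the smallest of the 6 that passed. It was lost without HT OSN replicate 1 (adjusted p = 0.137) or 2 (0.0812) and without MexHT OSN replicate 1 (0.0518) or 2 (0.0523), and with all groups of the table in one fit (0.0793). Elavl3 (chromosome 9, 22015005 to 22052023, minus strand), which encodes HuC, a pan-neuronal member often used as a marker of differentiating neurons, was at 652, 716 and 563 TPM in HT OSN. In MexHT OSN it ranged from 437 to 706 TPM with a median of 669, and the groups overlapped (log2 difference −0.07, SE 0.17, limma adjusted p = 0.757). Replicate 5 had the lowest Elavl3 and the highest Elavl2 and Elavl4 of the 6 MexHT OSN libraries.

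Within the summed TPM of these 3 ELAV genes, Elavl3 supplied 85.8% ± 2.22 in the 3 HT OSN libraries and 79.1% ± 5.73 in the 6 of MexHT. The Elavl2 share was 3.51% ± 0.354 and 6.33% ± 1.84, with a range of 3.16 to 3.87% in HT OSN and 4.99 to 9.85% in MexHT OSN, so the shares of the 2 groups did not overlap. Elavl1, the ubiquitous member of the family, was level between them, at 74.6 TPM ± 6.40 with HT and 73.3 ± 6.59 with MexHT (limma adjusted p = 0.861).

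ELAV proteins can bind the mRNAs of their own family, so the 3′ untranslated regions of the longest GENCODE M21 coding transcripts were searched for the U-rich motif TTTATTT on the transcript strand, with overlapping copies counted. Elavl2 held 5 copies in 2477 bases, Elavl4 held 3 in 2595 and Elavl3 held 1 in 3498. Of the 9491 genes with a region of at least 1000 bases, 60.7% held at least 1 copy. Their median was 0.395 copies per 1000 bases, against 2.02 in Elavl2, 1.16 in Elavl4 and 0.286 in Elavl3. Among the other genes that rose in MexHT OSN, Rbfox2 held 1 copy and Nova2 and Rbfox3 held 0. Nova1 held 5, Rbfox1 1 and Msi1 3, and Msi2, which fell, held 4. The first copy in Elavl2 lies at chr4:91252701-91252730 and the first in Elavl4 at chr4:110205750-110205779 (GRCm38, minus strand), shown here because these are the ELAV genes that rose, with the motif in capitals.
Elavl2: gaagtttacattTTTATTTatgaagttaca
Elavl4: tttgcaaattttTTTATTTttcctttttct
A match is a string of letters and was not tested for binding.

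The RefSeq promoter table (GRCm38.p6) had windows of 300 bases for 8 of the 10 genes, and none for Rbfox2 and Msi1 was used here. The Elavl2 window furthest upstream, chr4:91399935-91400234 on the minus strand, is shown because Elavl2 was the gene with such a window that rose most clearly, and its 1 copy of CAGCTG, the E-box core read by many neurogenic basic helix-loop-helix factors, is in capitals.
Elavl2: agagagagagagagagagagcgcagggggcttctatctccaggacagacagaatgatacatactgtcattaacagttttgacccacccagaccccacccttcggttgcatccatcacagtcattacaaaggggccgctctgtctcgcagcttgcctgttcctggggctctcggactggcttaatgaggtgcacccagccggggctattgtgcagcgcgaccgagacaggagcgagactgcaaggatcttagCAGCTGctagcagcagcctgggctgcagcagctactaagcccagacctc
CAGCTG, searched on both strands, occurred in 16.3% of the 32851 windows of the table. It was also in at least 1 window of Elavl3, Elavl4, Nova1 and Rbfox1. Some genes have several windows, so this tally by gene cannot be set against the share of windows. Not all Elavl2 windows held the motif, and chr4:91372020-91372319 had 0 copies.

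The splicing factors of the Nova and Rbfox families pointed upwards in MexHT OSN, apart from Rbfox1. Rbfox2 (chromosome 15, 77078990 to 77307004, minus strand), the broadly expressed Rbfox member, was at 100, 98.7 and 85.1 TPM in HT OSN. Its lowest, median and highest levels in MexHT OSN were 156, 182 and 201 TPM. The lowest MexHT library was above the highest HT library by more than the spread within either group, and the 1.87-fold difference (log2 0.91, SE 0.11, limma adjusted p = 0.000383) had the smallest p of the 10 genes. Rbfox3 (chromosome 11, 118489762 to 118911597, minus strand), which encodes the NeuN antigen of mature neurons, was at 0.286, 1.10 and 0.945 TPM in HT OSN, or 5, 19 and 13 counts. In MexHT OSN it had a lowest, median and highest level of 1.69, 2.04 and 3.90 TPM, from 23 to 48 counts. Both groups were low but did not overlap. Rbfox3 averaged 0.776 TPM in HT OSN and met the filter of 1 TPM only through the MexHT libraries, so its entry into the test already depended on a high MexHT level (without the filter its adjusted p was 0.0308). The log2 difference was 0.90 (SE 0.27, limma adjusted p = 0.0267), a value that understates the ratio of such low levels because 1 TPM was added. Without HT OSN replicate 1, the lowest of these, the log2 difference was 0.68 and its adjusted p 0.127. Rbfox1 (chromosome 16, 5885355 to 7411526, plus strand), a large gene of mature neurons and muscle, was under the mean of 1 TPM required for a test in every comparison. It had 6, 23 and 13 counts in HT OSN (0.308, 1.19 and 0.849 TPM) and 2 to 10 counts in MexHT OSN, with a median of 0.365 TPM.

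Nova2 (chromosome 7, 18925888 to 18965319, plus strand), the Nova member of the cortex and of differentiating neurons, was at 22.2, 18.8 and 17.3 TPM in HT OSN and at a lowest, median and highest of 24.2, 30.8 and 35.2 TPM in MexHT OSN. The groups did not overlap (1.49-fold, log2 0.58, SE 0.15, limma adjusted p = 0.0154), but the call was lost without HT OSN replicate 2 (adjusted p = 0.0581) or 3 (0.0564). Nova1 (chromosome 12, 46694517 to 46818929, minus strand), known from brainstem and spinal neurons, was at 4.10, 3.21 and 2.81 TPM in HT OSN. Its MexHT OSN values were 3.47 TPM at the lowest, 6.02 at the median and 7.20 at the highest, and 5 of 6 were above all HT libraries (log2 difference 0.58, SE 0.23, limma adjusted p = 0.0752). The low one was replicate 6, without which the adjusted p was 0.0311, and voom on the recovered counts gave 0.0293. The ratio of Nova2 to Nova1 within a library was 5.42 to 6.16 in HT OSN and 3.98 to 7.11 in MexHT OSN, so the balance of the pair was not parted by construct. Nova1 shares exonic bases with the predicted gene Gm33869 on its own strand and Nova2 with Gm26821 on the other. The strand setting of the counting is not given in the sources used here. Elavl3 likewise overlaps Gm49318 on its own strand.

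Nova1 carried the most copies of the Rbfox motif TGCATG among the 10 genes, 6 in a 3′ untranslated region of 5452 bases, and the first of them, at chr12:46699320-46699349 on the minus strand (GRCm38), is shown with the motif in capitals.
Nova1: tggaaataatgcTGCATGctggccagggcc
Nova2 held 3 copies, Rbfox3 held 2, Elavl3 and Elavl4 held 1 each, and Elavl2, Rbfox1, Rbfox2, Msi1 and Msi2 held 0. Over genes with a region of at least 1000 bases, 54.4% held at least 1, with a median of 0.252 copies per 1000 bases. By that measure Rbfox3 was densest at 1.39, ahead of Nova1 at 1.10, Nova2 at 0.448, Elavl4 at 0.385 and Elavl3 at 0.286. Copies in introns, where Rbfox proteins mostly act, were not searched.

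The Musashi pair parted company. Msi2 (chromosome 11, 88339382 to 88718513, minus strand), the broadly expressed member, was at 398, 394 and 351 TPM in HT OSN, level with Msi1. In MexHT OSN its lowest, median and highest values were 110, 160 and 205 TPM. Every MexHT library lay below every HT library, and the 2.39-fold fall (log2 −1.25, SE 0.19, limma adjusted p = 0.00115) was the largest on this scale among the 9 genes tested, although Rbfox3 exceeded it with 0.1 in place of 1 TPM added (log2 1.56 against −1.26 for Msi2). Msi1 (chromosome 5, 115429599 to 115455698, plus strand), a marker of neural stem and progenitor cells, was at 391, 377 and 347 TPM in HT OSN and ranged from 339 to 404 TPM with a median of 354 in MexHT OSN. These ranges overlapped (log2 difference −0.04, SE 0.09, limma adjusted p = 0.738). The ratio of Msi2 to Msi1 was accordingly 1.03 ± 0.0181 in the 3 libraries of HT OSN and 0.454 ± 0.115 in the 6 of MexHT OSN, with a highest MexHT value of 0.599 and a lowest HT value of 1.01. Since Rbfox2 went the other way, the ratio of Rbfox2 to Msi2 was 0.248 ± 0.00535 in HT OSN and 1.14 ± 0.229 in MexHT OSN.

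The Msi2 promoter is shown because Msi2 was the 1 gene that fell. Its first RefSeq window, chr11:88718228-88718527 on the minus strand (GRCm38.p6), held 39 CpG dinucleotides, against a median of 7 over all windows of the table, and 3 copies of the Sp-factor box GGGCGG counted on both strands, which are in capitals. At least 1 copy of that box was in 35.7% of all windows. Genes that rose had it too, with 4 copies and 27 CpG dinucleotides in the Elavl2 window chr4:91371991-91372290. The Nova2 window held 2 copies and 17 CpG dinucleotides, while the windows of Elavl4 and Rbfox3 held 0 copies. Elavl3, which did not change, had 2 copies and 29 CpG dinucleotides.
Msi2: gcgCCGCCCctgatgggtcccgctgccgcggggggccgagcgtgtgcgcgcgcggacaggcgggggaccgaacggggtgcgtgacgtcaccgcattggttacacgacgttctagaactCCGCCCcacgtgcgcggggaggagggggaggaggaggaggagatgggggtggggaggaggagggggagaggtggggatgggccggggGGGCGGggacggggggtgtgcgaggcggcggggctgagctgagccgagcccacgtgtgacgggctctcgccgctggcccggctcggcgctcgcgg
The Msi2 3′ untranslated region held 4 copies of TTTATTT in 5310 bases and that of Msi1 3 in 1895.

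**Figure D2:**
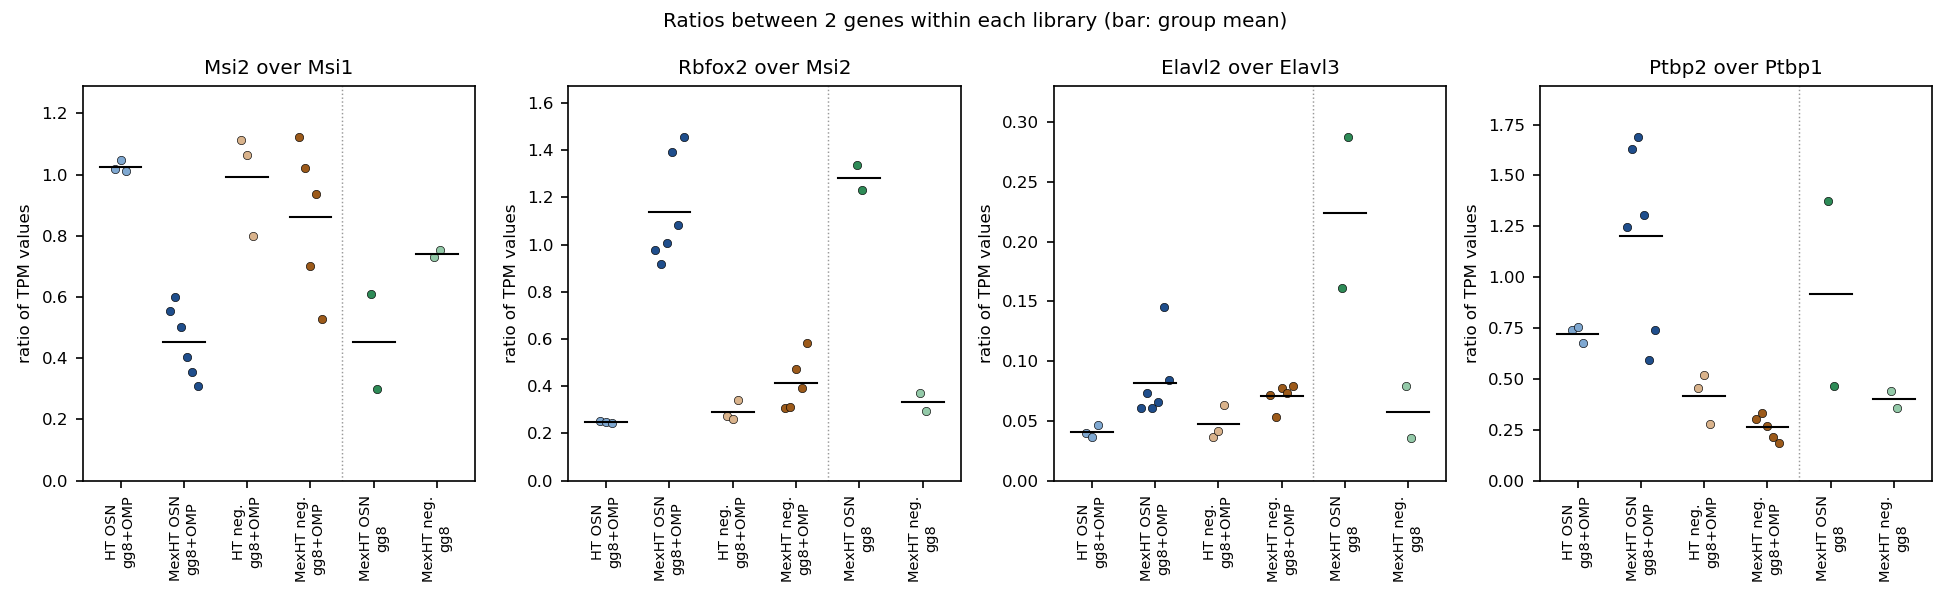
Ratio of the TPM values of 2 genes (vertical axis, linear from 0) within each library, by group, with bars for group means and "neg." for mCherry-negative cells. Msi2 over Msi1 lies between 0.308 and 0.599 in the 6 MexHT OSN libraries and between 1.01 and 1.05 in the 3 HT OSN libraries, and Rbfox2 over Msi2 is higher in every MexHT OSN library than in any HT OSN library.

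Other features of these OSN libraries moved with the construct. The summed level of 8 mature OSN markers was 7511 to 11925 TPM in the HT neurons and 1779 to 5584 TPM in the MexHT neurons, and 7 of the 8 passed the test, all lower. The summed level of 8 immature OSN markers was 2627 to 2761 TPM with HT and 4274 to 4982 TPM with MexHT, and 6 of 8 rose. Of 8 progenitor and cycling markers 2 rose (79.1 to 119 TPM with HT, 132 to 752 with MexHT). MexHT OSN replicate 5, the library with the highest Elavl2 and Elavl4 and the lowest Elavl3, stood apart in these sums, with 752 TPM of progenitor markers against 132 to 297 in the other 5 and with the lowest mature sum, 1779 TPM against 3528 to 5584. All 6 immune cell markers fell (1079 to 4467 TPM with HT, 321 to 552 with MexHT). No marker of these 4 lists was at 0 in any of these libraries. The sums also parted the groups for 5 horizontal basal cell markers (37.9 to 40.4 TPM with HT, 13.6 to 28.2 with MexHT) and 5 microvillous cell markers (25.8 to 42.1 and 11.7 to 20.8 TPM), with 1 marker of either list passing, lower. Their part in the changes of the 10 genes was not tested, and in bulk samples fewer cells of a type and less RNA per cell cannot be told apart. Xist, expressed from the inactive X chromosome, was at 0.126 to 60.3 TPM in the HT neurons and 58.4 to 139.8 TPM in the MexHT neurons. With the Xist level as a covariate 0 of the 9 genes passed and 329 genes passed in all, against 5907 without it. The log2 differences of the 6 genes were then 0.89 for Rbfox2, 0.80 for Elavl2, 0.69 for Nova2, 0.54 for Rbfox3, 0.44 for Elavl4 and −1.20 for Msi2, with limma adjusted p from 0.0581 for Rbfox2 to 0.527 for Rbfox3. The SE of Rbfox2 grew from 0.11 to 0.20 in that fit. Whatever Xist tracks and the construct cannot be told apart for these 6 calls.

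In mCherry-negative cells none of the 10 genes passed the test between MexHT and HT mice, and 0% of all 16860 genes tested did. Of the 8 genes that averaged 1 TPM or more, 2 had an unadjusted p under 0.05 (Msi1 and Msi2, both lower), and voom called 0. Msi2 was at 279, 342 and 200 TPM in HT and 194, 257, 154, 168 and 124 TPM in MexHT mCherry-negative libraries. These overlapped (log2 difference −0.62, SE 0.25, limma adjusted p = 0.229). Rbfox2 was at 76.0, 89.4 and 68.7 TPM in HT and 60.0, 79.9, 72.8, 65.6 and 72.8 TPM in MexHT (log2 difference −0.15, SE 0.13, adjusted p = 0.524). Elavl2 was at 16.0, 25.0 and 21.3 TPM in HT and between 18.1 and 26.3 TPM in MexHT (log2 difference 0.13, SE 0.19, adjusted p = 0.703). Among the 8 genes 7 had a negative difference, with a median of −0.30 against −0.01 over all genes, and none parted the groups without overlap, as 8.71% of all genes did. Rbfox1 and Rbfox3 were not tested here, and Rbfox3 had 0 counts in 1 HT library, which allows for up to 3 counts by counting error.

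Whether the construct difference itself differed between OSN and mCherry-negative cells was tested as an interaction over the 17 gg8+OMP libraries. Rbfox2 (log2 1.06, SE 0.17, limma adjusted p = 0.0016) and Nova2 (1.09, SE 0.29, adjusted p = 0.0215) passed, both with a more positive difference in OSN, and 12.4% of all 16785 genes did, 7.05% higher and 5.37% lower. For Nova2 the mCherry-negative libraries were 11.1, 14.0 and 8.76 TPM in HT and 6.07, 12.2, 6.69, 7.13 and 6.47 TPM in MexHT, so its interaction combined a rise in OSN with a lower, uncalled level in the other fraction. Its call was lost without HT OSN replicate 3 (adjusted p = 0.0559) or HT mCherry-negative replicate 2 (0.0711). Elavl2 missed the threshold (0.70, SE 0.23, adjusted p = 0.0599) and passed it with the mouse as a block (0.0381). For Msi2 the interaction was −0.64 (SE 0.33, adjusted p = 0.216), so its fall in OSN was not shown to differ from its value in mCherry-negative cells. Elavl3, Elavl4, Nova1, Rbfox3 and Msi1 did not pass either.

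**Figure D3:**
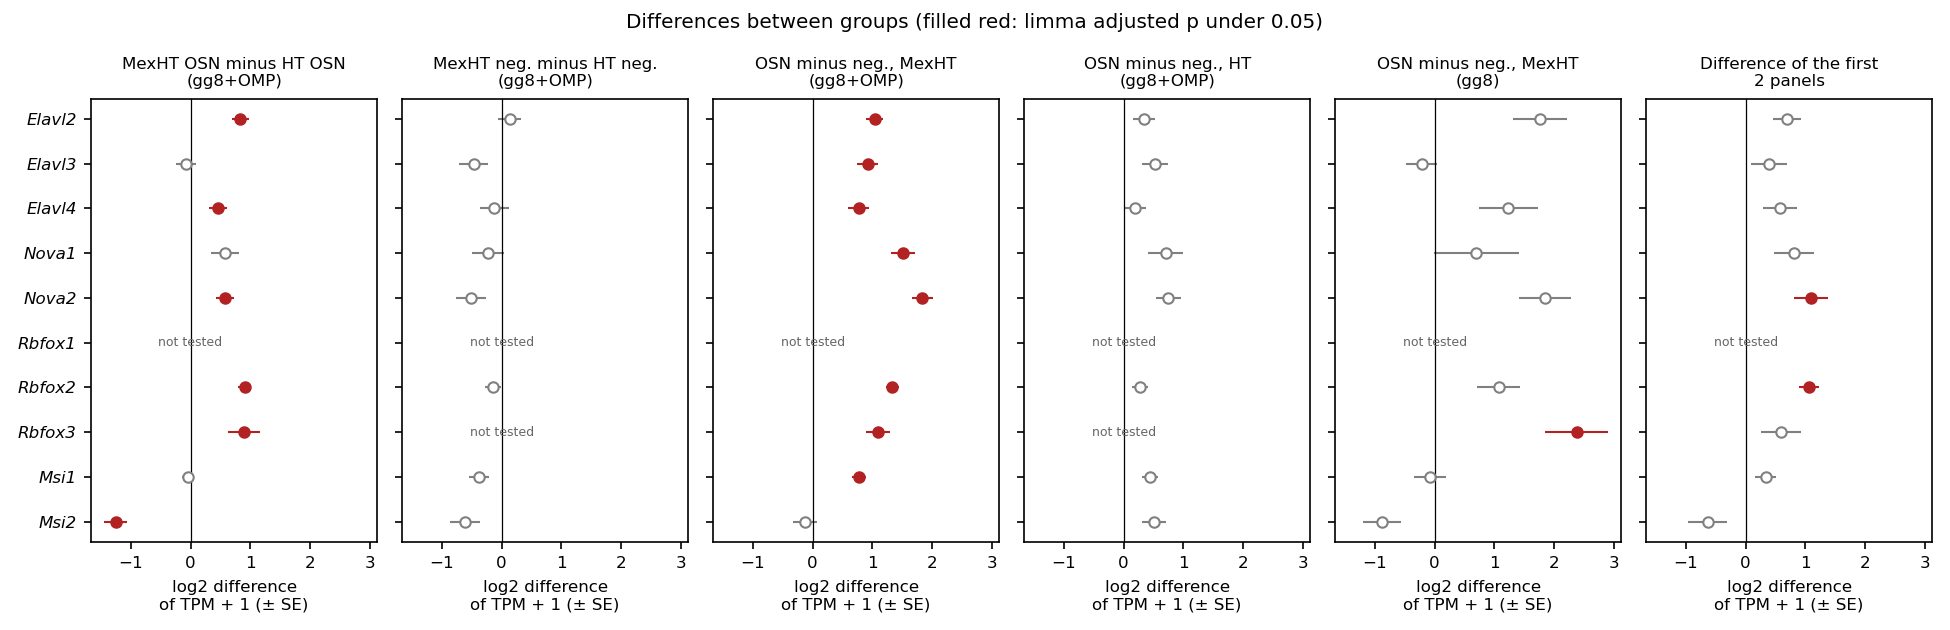
Log2 difference of TPM + 1 with its standard error (horizontal axis) for each gene in the 5 comparisons and the interaction, with filled red points where limma's adjusted p was under 0.05 and "neg." for mCherry-negative cells. Filled points number 6, 0, 8, 0, 1 and 2 from left to right, and Msi2 is the 1 filled point below 0.

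Within MexHT mice with both drivers, 8 of the 9 genes tested rose in OSN over mCherry-negative cells, and Msi2 did not pass. Rbfox3, at a mean of 0.518 TPM in mCherry-negative cells, reached this test only through the OSN group where it is high (adjusted p = 0.000226 without the filter); of the other 8 genes 7 rose. Of all 16522 genes 63.4% passed, 35.8% higher and 27.6% lower. Nova2 was at 6.07 to 12.2 TPM in 5 mCherry-negative and 24.2 to 35.2 TPM in 6 OSN libraries (3.58-fold, log2 1.84, SE 0.18, limma adjusted p = 2.22e-06). The log2 difference was 1.51 for Nova1 (1.31 TPM ± 0.469, n = 5, to 5.61 ± 1.31, n = 6), 1.34 for Rbfox2 (70.2 ± 7.62 to 179 ± 17.9), 1.10 for Rbfox3 (0.518 ± 0.161 to 2.31 ± 0.82), 1.04 for Elavl2, 0.92 for Elavl3, 0.78 for Msi1 and 0.77 for Elavl4, with limma adjusted p of 0.00186 or less. The order of the low genes depends on the 1 TPM added: with 0.1 TPM the values were 2.04 for Nova1, 1.96 for Nova2 and 1.94 for Rbfox3. The 2 groups did not overlap for 7 of these 8 genes, a count that includes Rbfox3, as for 43.1% of all genes. Elavl3 was the exception: MexHT mCherry-negative replicate 2 had 457 TPM, above the 437 TPM of OSN replicate 5. Msi2 was at 194, 257, 154, 168 and 124 TPM in mCherry-negative libraries and 110 to 205 TPM in OSN, with log2 −0.13 (SE 0.20, adjusted p = 0.588).

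In HT mice none of the 8 genes tested passed the same comparison in the unpaired fit, where 11.3% of all 17027 genes did (2.18% higher, 9.11% lower) and 4 of the 8 had an unadjusted p under 0.05. Voom called 0. With the mouse as a block 4 of the 8 passed, all higher in OSN: Elavl3 (log2 0.53, limma adjusted p = 0.0301), Nova2 (0.75, 0.0323), Msi1 (0.45, 0.034) and Msi2 (0.51, 0.0412), while the count over all genes went from 1923 to 4967. Msi2 was at 398, 394 and 351 TPM in HT OSN and 279, 342 and 200 TPM in the mCherry-negative cells of the same mice, a higher value in OSN in 3 of 3 mice. Nova2 was at 22.2, 18.8 and 17.3 TPM against 11.1, 14.0 and 8.76 TPM, again higher in 3 of 3. All 8 differences were positive, from 0.19 for Elavl4 to 0.75 for Nova2, with a median of 0.48 against 0.10 over all genes. Groups did not overlap for 5 of the 8 genes and for 41% of all genes. HT mCherry-negative replicate 2 had the highest level of all 8 genes in its group, and without it the unpaired fit also called 4 genes.

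The mCherry-negative libraries held many other cells. The summed level of 6 connective tissue and vessel markers was 11072 to 23572 TPM in MexHT and 7830 to 18386 TPM in HT mCherry-negative libraries, against 128 to 246 and 96.0 to 325 TPM in OSN. The 5 neutrophil markers summed to 9461 to 12243 and 4991 to 11536 TPM, against 106 to 284 and 106 to 358 TPM in OSN. Their part in the differences of the 10 genes between fractions was not tested.

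With gg8 alone, where the construct was on in immature OSN, Rbfox3 was the 1 gene of 9 tested that passed between MexHT OSN and mCherry-negative cells, against 8.32% of all 16490 genes (1.12% higher, 7.2% lower). It was at 8.49 and 4.50 TPM (148 and 108 counts) in OSN and 0.577 and 0.225 TPM (11 and 4 counts) in mCherry-negative cells, a log2 difference of 2.38 (SE 0.53, limma adjusted p = 0.0451). Its mean of 0.401 TPM in mCherry-negative cells means that it reached the test only through the OSN group, and of the other 8 genes 0 passed. The call was lost with a pseudocount of 0.1 TPM, without the filter on low values (adjusted p = 0.059) and without MexHT OSN replicate 2 or either mCherry-negative replicate. Nova2 was at 64.1 and 37.9 TPM against 14.9 and 11.3 TPM (log2 1.85, SE 0.43, adjusted p = 0.0508) and passed with the mouse as a block (0.044), with median-of-ratios scaling (0.0406) and by voom (0.041). Elavl2 was at 94.2 and 143 TPM against 50.2 and 22.3 TPM (log2 1.76, adjusted p = 0.0636), Elavl4 at 196 and 379 TPM against 173 and 76.2 TPM (1.24, 0.145), and Rbfox2 at 294 and 166 TPM against 121 and 89.9 TPM (1.08, 0.108). Msi2 was lower in both OSN libraries, at 220 and 134 TPM against 326 and 307 TPM (log2 −0.88, SE 0.32, adjusted p = 0.125), and passed only without OSN replicate 1 (−1.23, 0.0293). Elavl3 was at 585 and 500 TPM against 632 and 627 TPM (−0.22, 0.597). Groups of 2 libraries did not overlap for 7 of the 9 genes, a count that includes Rbfox3, but neither did they for 63.6% of all genes. Nova1 parted the OSN libraries themselves, at 7.94 and 1.41 TPM (197 and 48 counts). The mCherry-negative cells of these mice held the mature OSN, with 6650 to 11992 TPM over the 8 mature markers against 198 to 580 TPM in OSN. The 8 immature markers summed to 6044 and 4631 TPM in OSN and to between 3306 and 4268 TPM in mCherry-negative cells, which also held 5212 to 5498 TPM of connective tissue and vessel markers against 41.9 to 57.4 TPM. Progenitor markers parted the OSN libraries, at 168 TPM in replicate 1 and 896 TPM in replicate 2. The part of these cells in the differences was not tested.

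Other RNA-binding protein genes were read from a list of 33, of which 32 were tested in MexHT against HT OSN. Of these 8 rose and 7 fell, where 19.9% of all genes rose and 16.8% fell, with a median log2 difference near 0 (16 positive and 16 negative). The largest rises were those of Celf5 (4.90 TPM ± 1.75 to 26.0 ± 5.54, log2 2.20, limma adjusted p = 0.000215), a neuronal member of the CELF splicing and translation factors, and Khdrbs2 (3.50 ± 0.442 to 18.0 ± 8.46, log2 1.95, adjusted p = 0.00355), the neuronal splicing factor SLM1. The largest falls were those of Mbnl3 (31.5 ± 8.22 to 10.3 ± 3.30, log2 −1.55, adjusted p = 0.00232), a muscleblind splicing factor, and Celf4 (36.6 ± 6.39 to 18.1 ± 6.68, log2 −1.05, adjusted p = 0.0205). Ptbp1, the repressor of neuronal exons in cells that are not neurons, and Ptbp2, which replaces it in young neurons, did not pass (log2 −0.19, adjusted p = 0.441, and 0.44, adjusted p = 0.0973). Between MexHT OSN and mCherry-negative cells with both drivers 14 of 32 rose and 8 fell, where 35.8% and 27.6% of all genes did. Celf5 (2.21) and Celf6 (2.16) led the rises, and Mbnl3 (−1.45) and Mbnl1 (−1.39) the falls, all in log2 and with limma adjusted p of 0.00011 or less. Ptbp1 fell there from 267 TPM ± 42.2 to 112 ± 30.1 (log2 −1.27, adjusted p = 2.98e-05) and Ptbp2 rose from 67.7 ± 7.59 to 125 ± 28.4 (0.84, adjusted p = 0.000652), so their ratio went from 0.261 ± 0.0598 to 1.20 ± 0.451. In HT mice Celf3 rose in OSN (log2 0.76, adjusted p = 0.0369) and Ptbp1 fell (−0.58, 0.0497), and with gg8 alone Srrm3 rose (1.48, 0.0447) and Mbnl3 fell (−2.97, 0.0281). Between MexHT and HT mCherry-negative cells 0 of 32 passed. In the interaction 4 of 32 were higher, led by Celf5 (2.09) and Celf6 (1.54), and 2 were lower, Mbnl3 (−1.43) and Mbnl1 (−1.05).

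**Figure D4:**
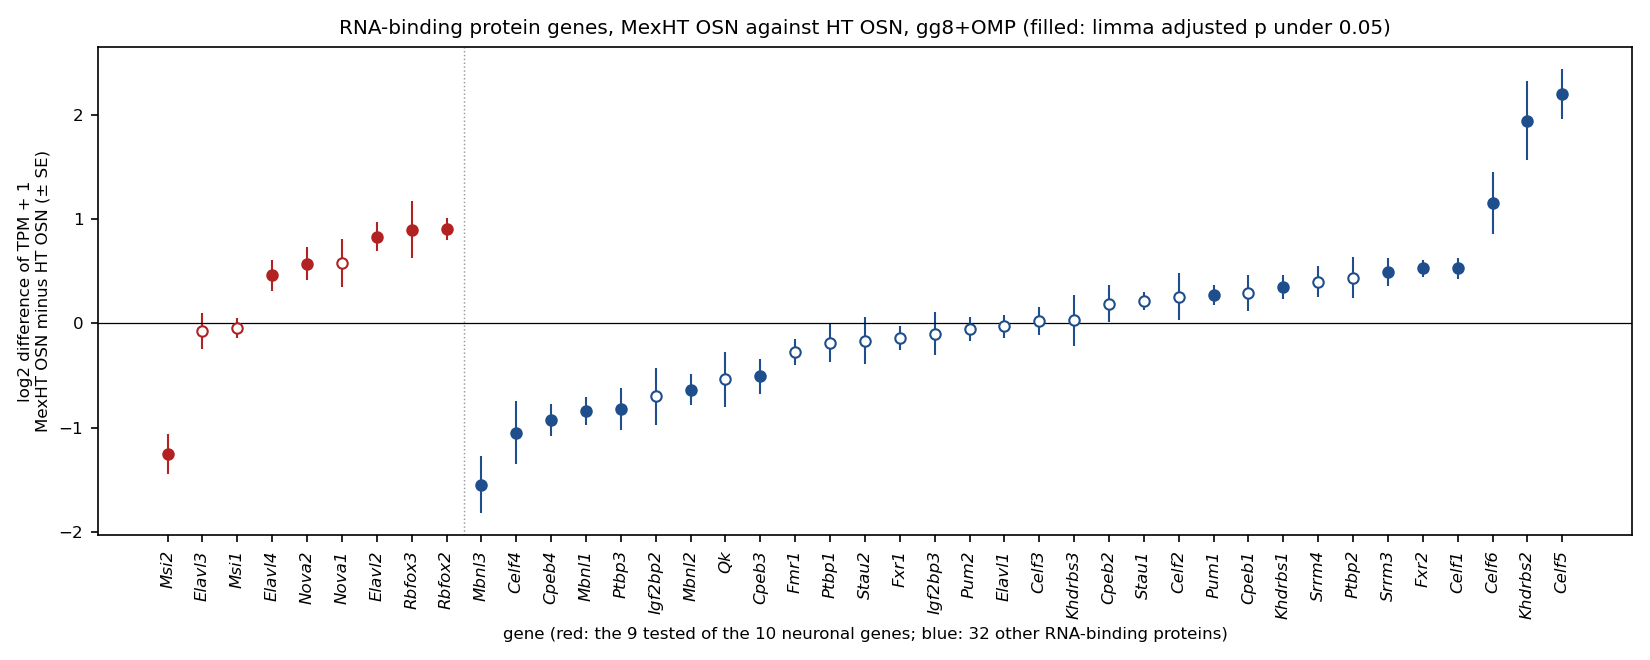
Log2 difference of TPM + 1 between MexHT OSN and HT OSN with its standard error (vertical axis) for the 9 tested of the 10 neuronal genes (red, left) and 32 other RNA-binding protein genes (blue, right), each sorted by value. Filled points passed limma's test: 5 higher and 1 lower in red, 8 higher and 7 lower in blue.

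A list of 10 mRNAs described as bound by ELAV or Musashi proteins was chosen with earlier results of these data known. Its counts are therefore no independent test, and binding by these proteins was not tested. Of these mRNAs 9 were tested for a difference. In MexHT against HT OSN 4 of them rose and 0 fell, where 19.9% of all genes rose and 16.8% fell: Mapt, which encodes tau (27.2 TPM ± 15.1 to 158 ± 49.1, log2 2.57, limma adjusted p = 0.00041), Cdkn1a, a cell cycle inhibitor (1.27, adjusted p = 0.000576), Nrn1, a neurite growth factor (1.14, adjusted p = 0.02), and Gap43, a growth cone protein and a marker of immature OSN (309 ± 52.3 to 631 ± 107.7, 1.02, adjusted p = 0.00143). The other 5 tested did not pass and are not named here. Of the 9 differences 5 were positive and 4 negative, the negative ones all among the unnamed genes. The median was 0.28 against 0.03 over all genes. In the interaction the median over the 9 was 0.06, against 0.10 over all genes. Mapt, Cdkn1a, Nrn1 and Gap43 also rose between MexHT OSN and mCherry-negative cells of gg8+OMP mice, where 35.8% of all genes rose, and Mapt also passed the interaction (1.67, adjusted p = 0.0304). None of the 9 passed in the other 3 comparisons.

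Likeness was described over the 17 gg8+OMP libraries as Pearson's r of log2(TPM + 1), among genes that averaged 5 TPM or more, leaving out predicted genes and small RNAs. These libraries share mice and fall into groups, so r has no p here. For Elavl2 the 3 most alike genes were Rsf1 (0.98), Usp42 (0.98) and Fam189a1 (0.98). Elavl3 was most like Ncam1 (0.98), Ebf3 (0.98) and Tdrkh (0.97), and Elavl4 like Acap3 (0.97), Bcl11b (0.95) and Panx1 (0.93). For Nova1 they were Gphn (0.99), Nipal3 (0.98) and Zfp426 (0.98), and for Nova2 Ppme1, Znf512b and Celsr2 (all 0.99). Rbfox2 was most like Tmem8b (0.995), Ap2b1 (0.99) and Dos (0.99), and Rbfox3 like Lzic, Lrrc75a and Gng8 (all 0.94). Gng8 is the gene whose promoter gives the gg8 driver its name. Msi1 went with Dync1h1 (0.98), Smarcc2 (0.97) and Trim66 (0.97), and Msi2 with Gdap1, Rpgrip1l (both 0.99) and Acbd5 (0.98). Between the 10 genes themselves, r was highest for Nova1 and Nova2 (0.96) and for Nova1 and Rbfox2 (0.93). Msi2 had r between −0.51 (with Rbfox3) and 0.37 (with Elavl3), and 0.24 with Msi1.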

How the data were processed

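The authors deposited 2 tables of TPM values, one for 17 gg8+OMP and one for 4 gg8 libraries, scaled separately, so tests were made within a table. Per the labels' protocols, libraries came from 10 ng of RNA with a stranded total RNA kit. FastQC, cutadapt, STAR and bedtools and the build mm10 are listed in the submitters' processing notes, and versions, counting program, annotation and strand setting are not given in the sources used here. TPM values within a gene were whole multiples of 1 step (tolerance 0.01 counts) in 100% of genes (gg8+OMP) and 99.9% (gg8), and the multiples were taken as counts. From both, 27 genes with date-like symbols were left out.

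Comparisons used limma 3.58.1 (R 4.3.3), with eBayes and its intensity trend, on log2(TPM + 1). Genes had to average 1 TPM or more across the compared groups, with Benjamini-Hochberg adjustment over all genes, a threshold of 0.05 and two-sided tests. The test was also tried on simulated counts, with 1.5-fold and 3-fold changes placed in well-expressed genes only. That trial covered neither paired libraries nor genes as low as Nova1 or Rbfox3, and no result here rests on it. The members, lists and alternatives were chosen with earlier results of these data known. All 10 members are named. Of the other RNA-binding proteins, Elavl1, Ptbp1 and Ptbp2 and the 2 largest passing changes in each direction are named, and of the target mRNAs those that passed. Per the labels, OSN and mCherry-negative libraries of one number share a mouse, which pairs them. Deviations of such pairs from their group means had correlations of 0.18, 0.31 and 0.47 in HT mice. In MexHT mice the correlations ran from −0.11 to 0.42 with both drivers and were 0.02 with gg8 alone. Deviations of same-numbered MexHT and HT mCherry-negative libraries correlated (0.34, 0.42 and 0.23), and with that block 0 of the 10 genes passed. P-values between MexHT and HT within a fraction measure the spread between mice. Those between fractions and of the interaction treat the 2 libraries of a mouse as independent, except where the mouse is named as a block.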

Additional observations from a re-analysis of the deposited data

Results flagged for a closer look

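Dixon's test was run on 20 groups of values (each of the 10 genes in MexHT OSN and in MexHT mCherry-negative cells with both drivers), and chance flags about 1 in 20, or 5%. Here 3 were flagged, all as high values. Elavl2 was at 63.6 TPM in MexHT OSN replicate 5, against 42.9 to 49.0 TPM in the other 5 libraries. Nova2 was at 12.2 TPM in MexHT mCherry-negative replicate 2, against 6.07 to 7.13 TPM in the other 4. Rbfox3 was at 3.90 TPM in MexHT OSN replicate 4, against 1.69 to 2.39 TPM in the other 5. A difference between fractions was also flagged for 2 genes: the MexHT minus HT difference in OSN exceeded that in mCherry-negative cells by 1.09 (log2) for Nova2 and by 1.06 for Rbfox2, both past the threshold of limma's interaction test.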

How the results depend on the processing

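Over the alternatives, 741 of 791 values of single members kept their direction and side of the threshold, 22 lost and 18 gained a call, and 10 changed sign. For MexHT against HT OSN, the Xist covariate left 0 members and 329 genes called, and leaving out 1 library gave 4 to 7 members and 3745 to 6506 genes. Without HT OSN replicate 1 the genes numbered 3745, and without replicate 2 3886. Replicate numbers are only shared there (correlations 0.11, 0.13 and −0.23), and with them as a replicate block 5 members passed: Rbfox3 was lost (adjusted p = 0.123) and Elavl3 changed sign (0.11). Elavl3 also changed sign without MexHT OSN replicate 5 (0.021) or HT OSN replicate 2 (0.0052), with a range of −0.168 to 0.021 when 1 library was left out, and Msi1 by voom (0.020). For MexHT against HT mCherry-negative cells, members stayed at 0 in every alternative, leave-one-out included (0 to 0), while genes were 1 without the filter on low values, 24 with all groups in one fit and 0 to 4 without 1 library. Elavl2 changed sign there with the Xist covariate (−0.21) and without HT mCherry-negative replicate 1 (−0.033, range −0.033 to 0.272). For OSN against mCherry-negative cells, MexHT with both drivers gave 8 members and 9623 to 10713 genes without 1 library, and Msi2 changed sign without mCherry-negative replicate 2 (0.0093, range −0.251 to 0.0093). HT gave 2 members with all groups in one fit and 4 with the replicate block, 1055 genes by voom and 4967 with the block, and 0 to 4 members and 660 to 4183 genes without 1 library. Elavl4 changed sign without HT mCherry-negative replicate 1 (−0.0028, range −0.0028 to 0.301). With gg8 alone, a pseudocount of 0.1 TPM gave 0 members and 646 genes, no filter 0 members, and median-of-ratios scaling, voom and the replicate block 2 members each. Leaving out 1 of those libraries gave 0 to 2 members and 0 to 3703 genes, the lone library being assumed to vary like the other group. Nova1 (−0.246, range −0.246 to 1.65) and Msi1 (0.079, range −0.243 to 0.079) changed sign without OSN replicate 1. The interaction called 1 to 3 members and 1195 to 2483 genes without 1 library. The cause of these shifts was not tested. Beyond these and Elavl2 in the interaction, the block changed no call of a member. Levels under 1 TPM limit Rbfox1 and Rbfox3, where 1 library can hold under 10 counts.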

Other observations

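The 2 tables were scaled separately, and effects of the driver cannot be told apart from any other difference between the 2 sets of libraries. Levels across them are therefore set side by side with no test. In MexHT OSN, Elavl2 was at 119 TPM ± 34.8 (n = 2) with gg8 alone and 47.8 ± 8.06 (n = 6) with both drivers. Elavl4 was at 287 ± 129 and 110 ± 19.2 TPM, Nova2 at 51.0 ± 18.5 and 29.6 ± 4.35 TPM, and Rbfox3 at 6.49 ± 2.82 and 2.31 ± 0.82 TPM. Msi2 was at 177 ± 60.2 and 163 ± 38.8 TPM. Its ratio to Msi1 was 0.454 ± 0.220 with gg8 alone, from 2 libraries at 0.299 and 0.610, and 0.454 ± 0.115 with both drivers. Elavl3 supplied 57.9% ± 12.7 of the summed TPM of Elavl2, Elavl3 and Elavl4 with gg8 alone and 79.1% ± 5.73 with both drivers. The ratio of Rbfox2 to Msi2 was 1.23 and 1.34 in the 2 gg8 OSN libraries and 0.916 to 1.45 in the 6 with both drivers.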
